A study of Mus musculus with 8 samples.

Results

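Mouse embryonic stem cells depleted of CHAF1A while mDux was kept low were compared with cells given negative control siRNA. The comparison rests on the 2 libraries of Chaf1a siRNA with the pool si308 and the 2 libraries of negative control siRNA, 4 of the 8 libraries of the series. These were chosen by their labels, and every gene and every repeat name in the deposited count tables was compared. Raw counts were used throughout.

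All cells carried a MERVL::EGFP reporter, a fluorescent protein under the control of an endogenous retrovirus, and grew on gelatin in medium with serum, leukaemia inhibitory factor and the inhibitors CHIR99021 and PD0325901 (2i). Negative control cells received 20 pmol of negative control siRNA, and the si308 cells received 10 pmol of Chaf1a siRNA and 10 pmol of si308, in both cases by transfection on consecutive days. si308 is a mixture of short RNAs cut by Giardia Dicer from double-stranded RNA that was copied from a fragment of mDux. Another group received the Chaf1a siRNA (10 pmol) made up with 10 pmol of control siRNA, called Chaf1a siRNA alone here, and the last group received Chaf1a siRNA (10 pmol) and a pool from another mDux fragment (si309, 10 pmol, where the label of 1 library gives no dose). No group received si308 without Chaf1a siRNA, so effects of the 2 siRNAs on the comparison with the negative control cannot be told apart. Each group had 2 biological replicates according to the series' design text. Poly(A) RNA was sequenced as stranded paired reads of 125 bases.

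CHAF1A is the large subunit of chromatin assembly factor 1 (CAF-1), which deposits histones H3 and H4 on newly copied DNA. In embryonic stem cells its loss is known to release a rare state that resembles the cleavage-stage embryo, marked by MERVL transcripts, and the double homeobox factor DUX activates many genes of that state. Embryonic stem cells also silence germline, lineage and retroelement genes through DNA methylation and heterochromatin.

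The libraries held 27937053 and 35845976 gene counts for the negative control and 30320146 and 42375685 for Chaf1a siRNA with si308. Counts are given as CPM, that is, scaled by library size with trimmed-mean (TMM) factors, and a log2 change is si308 minus negative control from edgeR's quasi-likelihood fit unless another contrast is named. A gene is called raised or lowered at a Benjamini-Hochberg adjusted p under 0.05 over the 17977 genes tested. The embryonic stem cell markers Pou5f1, Nanog, Sox2, Esrrb, Zfp42, Klf4 and Tfcp2l1 were all found, with a summed level of 3840 and 3790 CPM in the control libraries against 2980 and 2930 CPM with si308. Repeats had 6.25 and 6.45 counts per 100 gene counts under control siRNA, and 7.70 and 6.95 with si308, so replicate 0 of the si308 group stood above replicate 1.

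Chaf1a, the first target, was at 139 and 140 CPM in the negative control libraries and at 35.2 and 34.0 CPM with si308. The groups did not overlap, and the log2 change was -2.01 (SE 0.07, adjusted p 3.8e-16, edgeR). Chaf1a siRNA without a pool left 29.6 CPM (mean, n = 2), so the si308 cells kept a slightly higher level (log2 difference 0.23, SE 0.07, adjusted p 0.025, edgeR). The gene lies on chromosome 17, 56040439 to 56072289 (GRCm38).

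mDux is listed as 4933403O03Rik, named Duxf3 by GENCODE, and lies on the minus strand of chromosome 10, 58229979 to 58232675 (GRCm38). The fragment behind si308 spans 408 bases of its 2025-base, single-exon transcript, chr10:58231220-58231627. The ends of that fragment are shown because they define what the pool was cut from; they were read from the GENCODE transcript on the gene's strand.
si308 fragment start (chr10:58231605-58231627): aactcctcctccttgatcaactg
si308 fragment end (chr10:58231220-58231240): gcttttggccacagagagaag
Negative control libraries held 0 and 2 mDux counts, and the si308 libraries held 1 and 4. These are 0 and 0.0606 CPM against 0.0320 and 0.0925 CPM, which overlap. The ratio of si308 to negative control was 1.96 with an exact 95% counting interval of 0.321 to 20.6, and the log2 change of 0.90 did not pass the test (SE 1.08, adjusted p 0.49, edgeR). Chaf1a siRNA without a pool gave 256 and 193 counts, 7.33 and 7.21 CPM. mDux has near-identical copies in its array, so how reads were divided among the copies is uncertain, and intervals and floors of counts cover counting error only because the reads carried no molecular identifiers.

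Most genes of the cleavage-stage-like state were too low in both groups to pass the filter on these libraries alone, and most passed the test in neither direction. Of 43 listed two-cell-like genes in the table, 40 were tested, 5 were raised (12.5%, against 33.1% of all genes tested) and 3 were lowered (7.5%, against 28.5% of all genes). The list's median log2 change was -0.08, against 0.03 for all genes, and 0.00 once the 12 members with no counts in 1 group were set at their bound. Fitted on only the 4 libraries compared, 7 of the 40 passed the filter on low counts, 4 of them raised and 2 lowered, with a median of 1.43. The rest were tested through the other groups, so the low shares called describe their level and not a lack of change. Zscan4d, a gene of the two-cell embryo that acts on telomeres, had 0.353 and 0.697 CPM under control siRNA, 0.160 and 0.278 CPM with si308, and 255 and 272 CPM with Chaf1a siRNA alone. Zfp352, a zinc finger gene of that embryo, had 0.0392 and 0 CPM, 0.0640 and 0.0463 CPM, and 33.4 and 33.2 CPM in the same order. So both si308 libraries lay far below both Chaf1a-only libraries for these genes.

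In the direct contrast of si308 with Chaf1a siRNA alone, all 40 tested members were lower, with a median log2 difference of -9.21. With 11 members at their bound it was -8.34. Of all genes, 12% were lowered and 9.91% raised in that contrast. The filter used all 8 libraries, and on only the 4 libraries compared 7 of the 40 passed it. Most members were thus tested through the other groups, where they were higher, so the count describes their level only. The 5 members that were raised over the negative control were AU015228, Usp17la, Ddit4l, Sp110 and Usp17le. Usp17la, one of a group of deubiquitinase genes, had 0.157 and 0.212 CPM in the control libraries against 0.864 and 0.948 CPM with si308 (log2 change 2.26, SE 0.36, adjusted p 1.1e-05, edgeR), beside a mean of 163 CPM with Chaf1a siRNA alone. AU015228 had 0 and 1 count in the negative control libraries, a ratio of 44.8 (95% counting interval 7.72 to 1800) at 0.704 and 0.810 CPM with si308. Ddit4l, a stress-responsive inhibitor of mTORC1 signalling, rose from 13.8 and 13.9 to 42.8 and 49.9 CPM. The lowered members were Obox6, Zscan4d and Tdpoz3, and Obox6, an oocyte-type homeobox gene, fell from 3.69 and 3.45 to 1.09 and 0.856 CPM. The Zscan4, Usp17l, Tdpoz and Obox genes have near-identical copies, so values of single members are uncertain. Sp110, Usp17le, Zscan4d, Zfp352 and Tdpoz3 were singled out after their values were seen. Single libraries decided 3 of the calls: that of Zscan4d was lost without replicate 1 of the negative control or replicate 0 of the si308 group (adjusted p 0.39 and 0.081, edgeR). That of Usp17le was lost without replicate 1 of either group (adjusted p 0.29 and 0.40), and that of Tdpoz3 without replicate 0 of the negative control or replicate 1 of the si308 group (adjusted p 0.053 and 0.067).

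**Figure D1:**
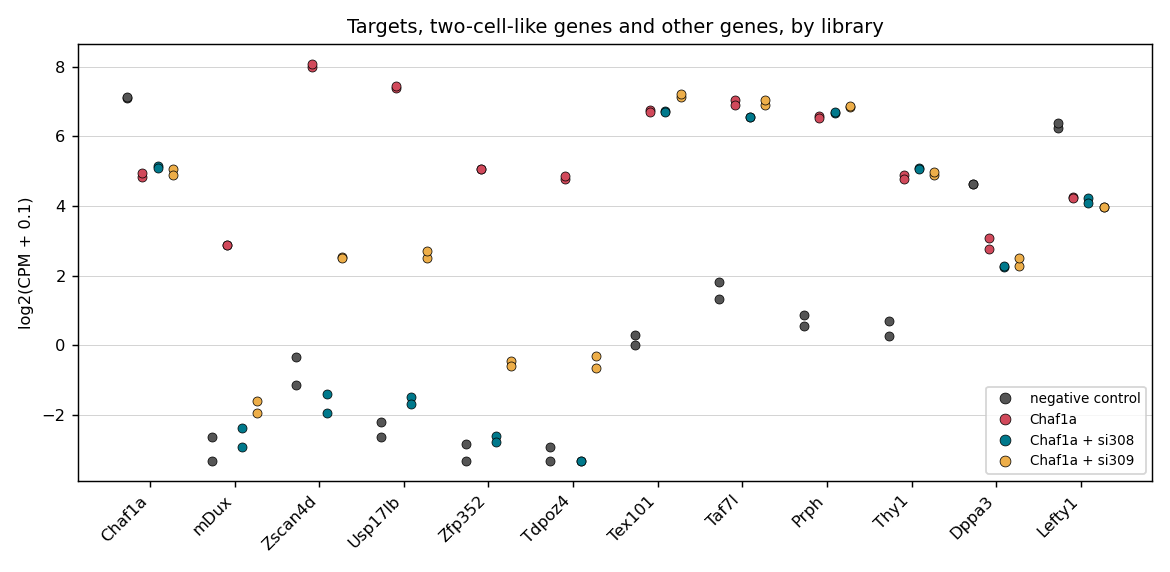
Level of the siRNA targets, two-cell-like genes and other genes in each of the 8 libraries, as log2(CPM + 0.1), with 1 dot per library and colours for the groups. Zscan4d, Usp17lb, Zfp352 and Tdpoz4 sit near the negative control in the si308 libraries and far above it with Chaf1a siRNA alone, whereas Tex101, Taf7l, Prph and Thy1 are high in all 3 depleted groups.

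Over all genes, the transcriptome differed widely from the negative control. Of 17977 genes tested, 5948 were raised (33.1%) and 5119 were lowered (28.5%), and 11606 had an unadjusted p under 0.05. Scaling by library totals in place of TMM shifted the median log2 change over all genes to 0.20 from 0.03 and the split to 7684 raised and 3276 lowered, so changes of about that size carry a direction that depends on the scaling. At a change of at least 2-fold the counts were 3332 raised (18.5%) and 411 lowered (2.29%). The libraries of the groups did not overlap for 7530 genes in the higher direction (41.9%) and 6621 in the lower (36.8%).

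The balance changed with expression level. Among 3993 genes with a mean under 1 CPM over both groups, 1557 were raised and 108 lowered at least 2-fold. Between 10 and 100 CPM, 390 of 6868 genes were raised and 122 lowered by that much. At 100 CPM or more, 19 of 2605 genes were raised and 24 lowered at least 2-fold, while 408 were raised and 1614 lowered at any size. So rises of at least 2-fold were a larger share of the genes of low level, and most called genes of high level had small falls. A total of 418 tested genes had no counts in either negative control library. Of these, 272 had counts in both si308 libraries and 25 of the 272 had a mean of at least 1 CPM with si308, which describes their level only, since genes picked in this way can only be higher.

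**Figure D2:**
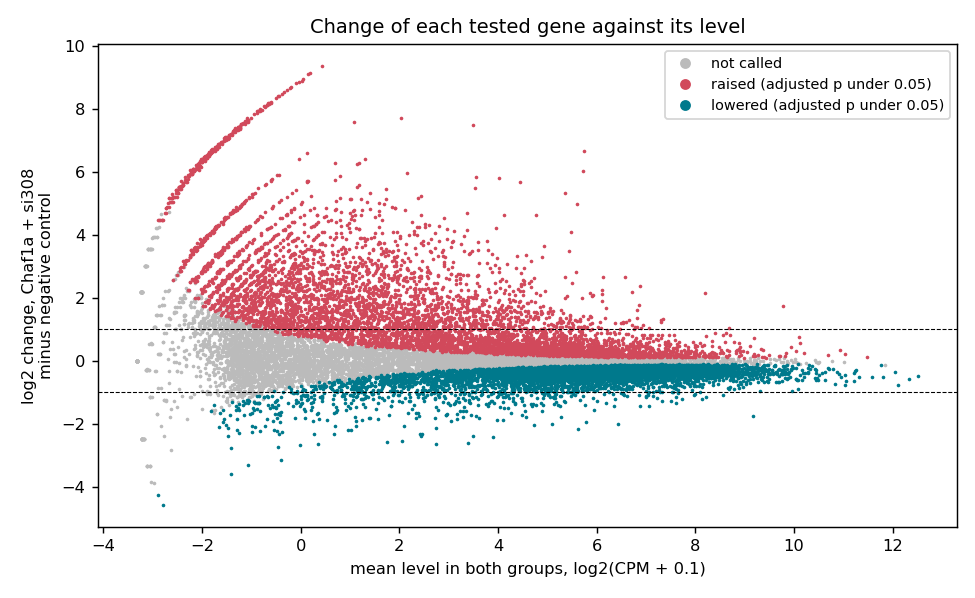
Each dot is 1 of the 17977 genes tested, with its mean level in both groups on the x axis, as log2(CPM + 0.1), and its log2 change on the y axis. Dashed lines mark a 2-fold change. The 3332 genes raised at least 2-fold lie mostly at the left, and the 24 lowered and 19 raised by that much at 100 CPM or more lie at the right.

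The 15 largest rises at 1 CPM or more were all of genes with no counts in either negative control library. They included Pvalb, a calcium-binding protein of interneurons and muscle, Gbp2, an interferon-inducible GTPase, and Tgm5, an epidermal transglutaminase. Pvalb had 2.56 and 2.43 CPM with si308, at least 23.9-fold above a floor of 3 counts per library. Gbp2 had 1.73 and 2.45 CPM, at least 20.0-fold higher. Asgr1, the hepatocyte asialoglycoprotein receptor, was the last of the 15, with 0.992 and 1.23 CPM and at least 10.6-fold. Others among them were Fam83a, Spocd1, Mgst2, Akr1c12, Itih3, Reg1, Ltf, Nkg7, Col3a1 and Slc13a3, with means of 1.22 to 2.03 CPM with si308. These are genes of unlike tissues, and each also had counts in both libraries of Chaf1a siRNA alone. In the contrast of si308 with Chaf1a siRNA alone, Gbp2, Fam83a, Itih3 and Reg1 were lower with si308 and Asgr1 was higher, and the other genes named here did not pass.

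Among genes that reached 50 CPM, Tex101 rose most. Tex101, a surface glycoprotein of male germ cells, had 0.903 and 1.12 CPM in the control libraries against 107 and 105 CPM with si308 (log2 change 6.68, SE 0.10, adjusted p 1.1e-21, edgeR). Prph, the neuronal intermediate filament peripherin, had 1.37 and 1.73 CPM against 103 and 104 CPM (log2 change 6.04). These are rises of 105-fold for Tex101 and 66.9-fold for Prph, and the replicates of a group lay close together. Neither differed between si308 and Chaf1a siRNA alone beyond the threshold (adjusted p 0.94 for Tex101 and 0.094 for Prph, edgeR; log2 differences -0.01 and 0.13).

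Further large rises at this level were those of Akr1cl, an aldo-keto reductase relative, Gsn, the actin-severing protein gelsolin, Gpnmb, a glycoprotein of lysosomes and melanosomes, S100a6, a calcium-binding protein, Bbs7, a subunit of the ciliary BBSome, Efr3b, a membrane anchor of a phosphatidylinositol kinase complex, and H2-D1, an MHC class I heavy chain. Gsn had 1.92 and 2.30 CPM against 53.1 and 51.8 CPM, and H2-D1 had 12.8 and 11.3 CPM against 80.6 and 87.5 CPM. Gpnmb rose from 4.51 and 5.30 to 77.1 and 89.6 CPM (log2 change 4.08) but was lower than with Chaf1a siRNA alone, where its mean was 213 CPM (log2 difference -1.35, adjusted p 1.6e-13, edgeR). Akr1cl, Taf7l, S100a6, Bbs7, Efr3b and H2-D1 were also lower with si308 than with Chaf1a siRNA alone, by 0.27 to 0.67 on the log2 scale.

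The falls were smaller. Lefty1, a secreted antagonist of Nodal, fell from 76.0 and 83.6 to 18.7 and 17 CPM (log2 change -2.17, SE 0.08, adjusted p 1.2e-15, edgeR), the largest fall among genes at 50 CPM or more. Ldhb, the B subunit of lactate dehydrogenase, fell from 846 and 920 to 291 and 239 CPM, the highest control level in that group. Sgk3, a serine/threonine kinase, fell by 1.99 on the log2 scale, and S100a13, Accsl, Dnajc6 (auxilin, which uncoats clathrin vesicles), A2m (a protease inhibitor), Vwf (von Willebrand factor) and Klhl13 (an adaptor of a cullin ubiquitin ligase) fell by 1.43 to 1.93. Of the 10 abundant falls, Chaf1a among them, Sgk3 and Klhl13 were lower with si308 than with Chaf1a siRNA alone, Chaf1a and Accsl were higher, and the other 6 did not pass in that contrast.

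At 1 CPM or more, the largest falls were of Tcl1b2, a relative of the AKT coactivator Tcl1 (1.18 and 1.0 CPM against 0.128 and 0.185 CPM), and Elavl4, a neuronal RNA-binding protein. Mobp, a myelin protein, fell from 11.4 CPM in both libraries to 1.73 and 1.92 CPM (log2 change -2.63). Dppa3, a maternal factor that protects methylation in the zygote, fell from 24.8 and 24.6 to 4.61 and 4.72 CPM (log2 change -2.40, SE 0.12, adjusted p 5.5e-13, edgeR), and it was lower than with Chaf1a siRNA alone (log2 difference -0.71, adjusted p 0.00059, edgeR). The other 11 were Lrrc15, Id4, Ccbe1, Arhgef38, Acsm4, Tlx1, Aldh1b1, Mei4, Htr3a, Setbp1 and Fgf17, with log2 changes of -2.18 to -2.60. The fall of Htr3a did not pass without replicate 1 of the negative control (adjusted p 0.087, edgeR).

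The listed gene groups fell into 3 kinds: lineage, germline and imprinted genes with mostly raised members, growth and replication genes with mostly lowered members, and groups with members in both directions. Counts below are set beside 33.1% raised and 28.5% lowered among all genes, and these shares differed by level. Under 1 CPM (mean over both groups), 39.9% were raised and 2.96% lowered. Between 10 and 100 CPM the shares were 27.5% and 38.9%, and at 100 CPM or more 15.7% and 62.0%. Lists were not matched for level, so a list of abundant genes with mostly lowered members can lie near the share at its level.

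**Figure D3:**
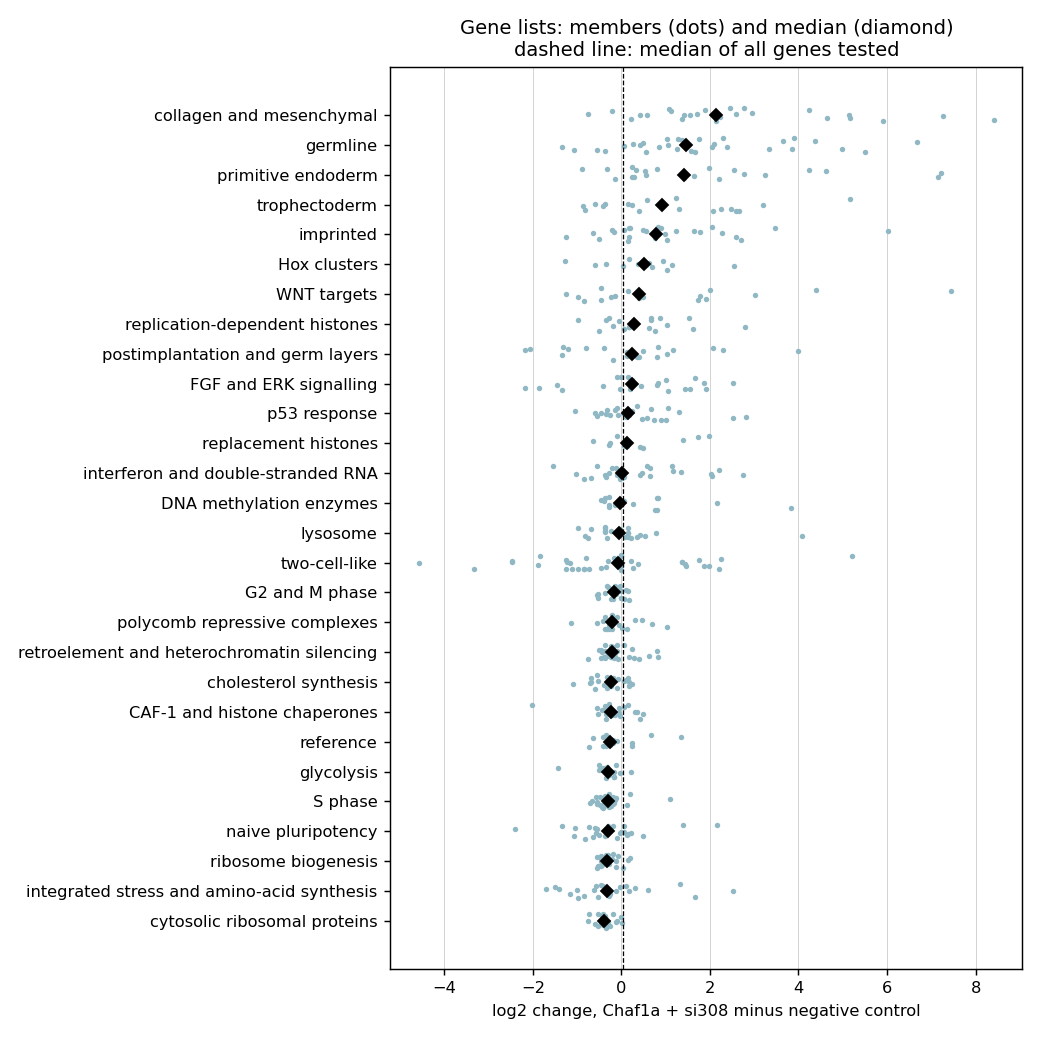
Log2 change of every tested member (dots) and the median (diamond) of the 28 gene lists, with the median of all genes tested as a dashed line. The collagen and mesenchymal, germline and primitive endoderm lists have medians of 2.13, 1.47 and 1.42, and cytosolic ribosomal proteins have a median of -0.39.

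Germline genes, many of which are known to be silenced by promoter methylation in somatic and pluripotent cells, were raised in 25 of 30 cases and lowered in 3, with a median of 1.47. The lowered members were Kit, a receptor tyrosine kinase, Prdm1, a repressor that specifies germ cells, and Rpl10l, a ribosomal protein copy. Taf7l, a testis form of a transcription factor IID subunit on chromosome X, 134460118 to 134476490, had 2.39 and 3.45 CPM against 94.7 and 93.4 CPM (log2 change 4.98, SE 0.10, adjusted p 3.3e-19, edgeR). Fkbp6, a meiotic and piRNA-pathway cochaperone, had 37.5 and 37.4 CPM against 190 and 202 CPM. Tex19.1, which protects germ cells against retrotransposons, had 23.4 and 23.3 CPM against 89.7 and 104 CPM. In each case both si308 libraries lay above both negative control libraries.

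Other germline members act at several steps of gametogenesis. Slc25a31, the ADP/ATP carrier of sperm, rose from 0.628 and 0.515 to 6.02 and 5.46 CPM. Sycp3, a synaptonemal complex protein, rose from 36.5 and 33.1 to 109 and 112 CPM. Piwil2 and Tdrd1 of the piRNA pathway rose by 2.29 and 3.64 on the log2 scale, and Dazl, a germ cell RNA-binding protein, by 1.25. These 5 members and the 3 that fell were singled out after their values were seen. Against Chaf1a siRNA alone, 9 of the 30 members were lower with si308 and 2 were higher (background 12% and 9.91%), and Fkbp6 and Sycp3 did not pass (log2 differences -0.02 and 0.02).

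The promoters of 4 raised germline genes are printed because they hold the E-box CACGTG, the letters bound by the MGA and MAX complex that represses such genes. The windows cover 250 bases before and 50 after each start, from RefSeq on GRCm38.p6, on the gene's strand, with the E-box in capitals.
Taf7l (chrX:134476441-134476740, minus): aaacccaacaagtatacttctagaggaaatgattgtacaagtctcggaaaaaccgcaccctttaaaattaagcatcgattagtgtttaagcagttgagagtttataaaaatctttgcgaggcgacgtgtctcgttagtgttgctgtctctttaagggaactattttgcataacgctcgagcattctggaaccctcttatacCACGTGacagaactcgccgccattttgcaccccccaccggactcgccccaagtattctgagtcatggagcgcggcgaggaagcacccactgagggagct
Fkbp6 (chr5:135349995-135350294, minus): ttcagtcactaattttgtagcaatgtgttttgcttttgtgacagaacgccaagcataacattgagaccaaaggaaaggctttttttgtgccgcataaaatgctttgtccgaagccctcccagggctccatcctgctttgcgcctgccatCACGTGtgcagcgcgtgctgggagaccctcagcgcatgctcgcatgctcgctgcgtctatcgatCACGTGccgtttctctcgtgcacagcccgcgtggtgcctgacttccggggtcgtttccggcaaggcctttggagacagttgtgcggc
Slc25a31 (chr3:40708621-40708920, plus): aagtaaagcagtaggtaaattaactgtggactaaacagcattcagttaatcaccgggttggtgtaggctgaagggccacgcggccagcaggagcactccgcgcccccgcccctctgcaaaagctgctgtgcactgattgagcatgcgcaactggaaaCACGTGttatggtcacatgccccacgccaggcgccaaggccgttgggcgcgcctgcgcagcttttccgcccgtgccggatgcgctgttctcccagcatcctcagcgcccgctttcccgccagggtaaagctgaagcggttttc
Sycp3 (chr10:88459337-88459636, plus): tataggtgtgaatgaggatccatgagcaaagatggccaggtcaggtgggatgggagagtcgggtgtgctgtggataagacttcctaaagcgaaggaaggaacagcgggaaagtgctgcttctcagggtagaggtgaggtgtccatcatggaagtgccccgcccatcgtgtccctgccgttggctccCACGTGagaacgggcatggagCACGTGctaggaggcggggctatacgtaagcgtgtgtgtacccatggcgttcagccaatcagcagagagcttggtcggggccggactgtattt
The motif reads the same on both strands. Of 32851 promoter windows in the table, 7.15% held it, and 8.09% of 27025 genes had such a window. Among 25 germline members with an entry, 12 held the motif and all 12 were raised, while 8 of the 13 without it were raised. The median log2 changes of these members were 1.20 with the motif and 1.25 without it. A match is only a description of the letters in the window.

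Imprinted genes, expressed from 1 parental allele, were raised in 18 of 26 cases and lowered in 4 (median 0.79). H19, a maternally expressed noncoding RNA, rose from 7.03 and 7.42 to 33.5 and 36.2 CPM, and its neighbour Igf2, a growth factor of the paternal allele, from 1.37 and 1.06 to 4.67 and 5.23 CPM. Both RNAs of this pair were thus raised. Meg3 and Mirg, noncoding RNAs of 1 cluster, rose by 1.04 and 1.24 on the log2 scale, and Meg3 was the more abundant, at 252 and 282 CPM against 544 and 559 CPM. Nnat, a membrane proteolipid, rose from 2.79 and 2.45 to 15.4 and 16.2 CPM. Against Chaf1a siRNA alone, 12 of 26 members were lower with si308 and 3 higher (background 12% and 9.91%). Peg10, a gene derived from a retrotransposon, had 104 and 98.6 CPM under control siRNA, 167 and 191 CPM with si308 and a mean of 414 CPM with Chaf1a siRNA alone (log2 difference -1.21, adjusted p 1.2e-13, edgeR). Igf2 and Peg10 were singled out after their values were seen.

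Of the collagen and mesenchymal genes, 23 of 25 tested were raised and 1 was lowered, with a median of 2.13. Thy1, a surface glycoprotein of fibroblasts, neurons and T cells, had 1.10 and 1.51 CPM against 33.8 and 33.1 CPM (log2 change 4.65, SE 0.13, adjusted p 2.5e-17, edgeR). Fbn1, a microfibril protein, had 3.02 and 4.27 CPM against 27.6 and 29.8 CPM. Col6a1, a chain of collagen VI, had 0.0785 and 0.303 CPM against 4.38 and 3.47 CPM. The matrix and contractile genes thus stood higher in both si308 libraries, from low control levels. Fn1, fibronectin, went the other way, from 2450 and 2810 to 1600 and 1530 CPM (log2 change -0.75). Col6a1 and Fn1 were singled out after their values were seen.

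These genes are also markers of fibroblasts, which are often used as feeder cells, although the labels name gelatin as the support. Of 7 fibroblast markers (Col1a1, Col1a2, Col3a1, Thy1, Lum, Dcn and Postn), 5 were raised, and their summed level was 2.71 and 2.63 CPM in the control libraries against 45.9 and 47.8 CPM with si308, of which Thy1 made up 33.8 and 33.1. Dcn, Postn and Col3a1 had no counts in the negative control, and Dcn had 0.0640 and 0.0231 CPM with si308. The 3 blood markers summed to 0.0392 and 0.0303 CPM against 0.928 and 0.416 CPM. Of these, 1 was raised, and Hbb-bs was at 0 counts in all 4 libraries. The part of other cells in the result was not tested. In bulk RNA, more cells of a type and more RNA per cell cannot be told apart, and the same holds for fewer cells and less RNA.

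Primitive endoderm genes were raised in 15 of 21 cases and lowered in 2, Lamc1 and Lama1, both laminin chains. Col4a1, a basement membrane collagen, had 33.6 and 41.4 CPM against 162 and 185 CPM (log2 change 2.20). Amn, a component of the cubilin receptor, had 0.589 and 0.273 CPM against 9.15 and 11.3 CPM. Gata6, a transcription factor that specifies this lineage, was raised at a low level, from 0.353 and 0.303 to 2.53 and 1.99 CPM (log2 change 2.77, SE 0.33, adjusted p 2.5e-07, edgeR). The factors Gata4 and Sox17 did not pass (adjusted p 0.56 and 0.63, edgeR; log2 changes 0.24 and 0.29), so 2 of the 4 markers of this cell type, Gata6 and Pdgfra, were raised. Lamc1 and Lama1 were named after their values were seen. The sum of the 4 markers was 3.06 and 2.51 CPM in the control libraries against 11.7 and 11.5 CPM with si308.

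Trophectoderm genes were raised in 10 of 18 cases and lowered in 5 (median 0.91). The keratins carried most of the level: Krt19 had 4.95 and 7.06 CPM against 31.1 and 27.2 CPM, and Krt8 had 2.47 and 3.15 CPM against 13.9 and 17.8 CPM. Krt7 and Krt19 were higher with si308 than with Chaf1a siRNA alone (log2 differences 1.29 and 0.57, adjusted p 4.4e-06 and 0.00056, edgeR). Cdx2, the defining factor of the lineage, was too low to be tested, at 0.196 and 0.151 CPM against 0.288 and 0.0463 CPM. Elf5 and Eomes were raised, though Eomes by only 0.40 on the log2 scale, and its call was lost without replicate 1 of either group (adjusted p 0.20 and 0.33, edgeR). Gata3 did not pass (adjusted p 0.30, edgeR; log2 change 0.58). The summed level of the 5 trophectoderm markers was 9.10 and 9.03 CPM in the control libraries against 21.9 and 26.9 CPM with si308.

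Pluripotency genes of the naive state were lowered in 16 of 27 cases and raised in 5, with a median of -0.30 (-0.14 with library totals, where 14 were lowered and 9 raised). Of these, 4 fell and 2 rose at least 2-fold, and the log2 changes ran from -2.40 to 2.17. Pou5f1 had 905 and 883 CPM against 683 and 717 CPM, and Nanog, a homeobox factor beside it, had 803 and 749 CPM against 579 and 515 CPM. Sox2, their partner, fell from 250 and 239 to 148 and 146 CPM (log2 change -0.73, SE 0.05, adjusted p 8.6e-11, edgeR). These factors were thus still abundant. Fgf4, a growth factor that primes differentiation, fell from 281 and 278 to 120 and 102 CPM. Dnmt3l, a cofactor of de novo DNA methylation, rose from 110 and 103 to 445 and 515 CPM, and Lin28a, an RNA-binding inhibitor of let-7 maturation, rose from 33.0 and 32.1 to 78.9 and 92.2 CPM. The other raised members were Klf5, Stat3 and Tbx3, by 0.15 to 0.48, named after their values were seen, and the call of Tbx3 was lost without replicate 0 of the negative control or replicate 1 of the si308 group (adjusted p 0.071 and 0.29, edgeR). Zfp42 was lowered by 0.20 on the log2 scale under TMM, and with library totals its change of -0.04 did not pass (adjusted p 0.48, edgeR).

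Markers of the postimplantation epiblast and germ layers went both ways, with 8 of 20 raised and 6 lowered. Lefty2, a Nodal antagonist, fell from 106 and 104 to 39.0 and 43.2 CPM, and Otx2, a homeobox factor of the formative state, from 24.1 and 24.7 to 10.4 and 9.32 CPM. Dnmt3b, a de novo methyltransferase, rose from 116 and 105 to 180 and 207 CPM.

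Of 16 listed enzymes of DNA methylation, 7 were raised (43.8%) and 6 lowered (37.5%), and the median of -0.03 became 0.14 with library totals. The de novo enzymes Dnmt3a and Dnmt3b rose by 0.83 and 0.81 on the log2 scale and their cofactor Dnmt3l by 2.17. Dnmt1, which copies methylation at replication, fell from 724 and 752 to 564 and 589 CPM, and its partner Uhrf1 from 848 and 880 to 651 and 672 CPM. Tet1 and Tet3, which oxidise methylcytosine, differed in direction: Tet3 rose by 0.80, and Tet1 fell by 0.28, a call that library totals removed (log2 change -0.12, adjusted p 0.051, edgeR). Dnmt1, Uhrf1, Tet1 and Tet3 were singled out after their values were seen.

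Genes that silence retroelements and build heterochromatin were lowered in 21 of 34 cases and raised in 7, with a median of -0.21, and with library totals 10 were lowered and 8 raised, with a median of -0.05. Rcor2, a corepressor subunit, fell from 215 and 211 to 126 and 128 CPM, and Cbx1, a heterochromatin protein, from 248 and 247 to 178 and 172 CPM. Polycomb genes were lowered in 12 of 21 cases and raised in 4, Jarid2, Phc2 and Cbx8 among them, with a median of -0.21; with library totals 5 were lowered and 5 raised, with a median of -0.05. Jarid2, a cofactor of polycomb complex 2, rose from 278 and 266 to 355 and 396 CPM, while Suz12 and Mtf2 of that complex fell by 0.37 and 0.41 on the log2 scale. Of 37 Hox genes in the table, 14 passed the filter on low counts, and 4 were raised, Hoxb9, Hoxa10 and Hoxc12 among them. Phc2 and Cbx8 were named after their values were seen. Hoxb9 was the highest of these with si308, at 5.31 and 5.25 CPM against 3.06 and 2.45 CPM. The call of Hoxc12 was lost with DESeq2 (adjusted p 0.11) and without replicate 0 of the negative control or replicate 0 of the si308 group (adjusted p 0.21 and 0.14, edgeR), and that of Cbx8 was lost with any 1 of the 4 libraries left out (adjusted p 0.058 to 0.079, edgeR).

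Besides Chaf1a, histone chaperones changed by small amounts, with 14 of 23 lowered, Chaf1a included, and 5 raised (median -0.24, and -0.08 with library totals, where 9 were lowered and 8 raised). Chaf1b, the middle subunit of CAF-1, had 139 and 153 CPM against 116 and 115 CPM (log2 change -0.34, SE 0.05, adjusted p 8.8e-06, edgeR). Npm1, an abundant nucleolar chaperone, fell from 6390 and 5950 to 4160 and 4210 CPM. Asf1a and Asf1b, which hand H3 and H4 to CAF-1, rose by 0.50 and 0.35, and the other raised members were Ubn1, Rbbp7 and Cabin1. Chaf1b and these 5 were singled out after their values were seen. The call of Cabin1 was lost without replicate 0 of the negative control or replicate 1 of the si308 group (adjusted p 0.27 and 0.17, edgeR).

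Replacement histone genes, which are transcribed outside S phase as well and have poly(A) tails, moved in both directions. H3f3b, which encodes the variant H3.3, rose from 414 and 397 to 1340 and 1360 CPM (log2 change 1.74, SE 0.04, adjusted p 1.3e-18, edgeR), and H3f3a, which encodes the same protein, from 112 and 117 to 151 and 159 CPM. The linker histone gene H1f0 rose from 19.3 and 22.3 to 88.7 and 77.1 CPM, above the mean of 46.5 CPM with Chaf1a siRNA alone (log2 difference 0.83, adjusted p 1.2e-08, edgeR). H3f3b, by contrast, did not pass in that contrast (log2 difference -0.05, adjusted p 0.42, edgeR). H2afy, which encodes macroH2A, fell from 179 and 193 to 123 and 117 CPM. In all, 6 of 11 were raised, H1fx, H2afj and H2afz among them, and 3 lowered, H2afx and H2afv among them, and these 5 were named after their values were seen. The calls of H2afx and H2afv were lost with library totals (adjusted p 0.15 and 0.12, edgeR). The call of H2afz was lost in 6 of the 10 alternatives, 2 of them without replicate 0 of the negative control or replicate 1 of the si308 group (adjusted p 0.26 and 0.37, edgeR). Both H3.3 genes have processed copies with shared sequence, so their values are uncertain to that extent.

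Replication-dependent histone transcripts lack a poly(A) tail, so poly(A) selection keeps few of them, and 20 of 29 were tested. Of those, 4 were raised and none was lowered in edgeR (5 and 0 with library totals). The calls of Hist3h2ba and Hist1h4i were lost without replicate 1 of the negative control (adjusted p 0.055 and 0.19, edgeR) or of the si308 group (0.14 for each). Hist1h2bc had 3.89 and 4.09 CPM against 10.8 and 12 CPM, and Hist1h1c had 2.75 and 2.94 CPM against 5.89 and 5.76 CPM. With Chaf1a siRNA alone, 9 of the 20 were higher than with si308 and none was lower (12% and 9.91% of all genes). On only the 4 libraries compared, 12 of the 20 passed the filter. The rest were tested through the other groups, so this count describes level only.

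S phase genes were lowered in 28 of 32 cases and raised in 3, Ccne2, Rpa2 and Ccne1 (median -0.30, and -0.14 with library totals). Mcm6, a subunit of the replicative helicase, fell from 875 and 844 to 580 and 578 CPM. Lig1, the ligase of Okazaki fragments, fell from 678 and 694 to 459 and 468 CPM, while Ccne2, a cyclin of the G1 to S transition, rose from 32.3 and 30.6 to 63.5 and 70.3 CPM. Of 24 genes of G2 and mitosis, 14 were lowered and 3 raised, and the median of -0.16 turned to 0.01 with library totals, where 7 were lowered and 9 raised. The rise of Ccne1 was only 0.12 on the log2 scale and was not called in 5 of the 10 alternatives, with an adjusted p of 0.48 without replicate 1 of the si308 group and 0.25 without replicate 1 of the negative control (edgeR). Rpa2 and Ccne1 were named after their values were seen.

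Cytosolic ribosomal protein genes were lowered in 22 of 26 cases, with none raised, and a median of -0.39 that stayed at -0.22 with library totals. Rpl4 fell from 5540 and 5520 to 3360 and 3240 CPM (log2 change -0.75, SE 0.04, adjusted p 7.4e-13, edgeR). Many of these genes have processed copies with shared sequence, which makes single values uncertain. Ribosome biogenesis genes were lowered in 20 of 25 cases and raised in 2 (median -0.32, and -0.16 with library totals), and Ubtf, a factor of RNA polymerase I, fell from 364 and 362 to 249 and 253 CPM. The reference genes were lowered in 11 of 16 cases and raised in 3, B2m, Actb and Gusb (the latter 2 named after their values were seen), with Eef1a1 going from 2880 and 2930 to 1910 and 1860 CPM. Their median of -0.25 was -0.09 with library totals, so falls of this size were shared by genes often taken as constant.

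Metabolic and stress genes were mostly lowered too. Glycolysis genes were lowered in 16 of 18 cases (median -0.30, and -0.14 with library totals, where 9 were lowered), and Pdk1, an inhibitor of pyruvate oxidation, was the 1 raised, named after its value was seen. Pfkm, a phosphofructokinase isoform, fell from 118 and 120 to 49.8 and 39.9 CPM. Genes of the integrated stress response and amino-acid synthesis were lowered in 16 of 25 cases and raised in 6 (median -0.32, and -0.16 with library totals). Atf4, the transcription factor at the centre of that response, fell from 267 and 294 to 160 and 153 CPM, and Psat1, an enzyme of serine synthesis, from 357 and 369 to 189 and 173 CPM. The related factor Atf5 went the other way, from 9.54 and 11.2 to 24.9 and 27.4 CPM.

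Most cholesterol synthesis genes were higher than with Chaf1a siRNA alone. Against the negative control, 14 of 23 genes were lowered and 2 raised, Insig1 among them, with a median of -0.24 (-0.08 with library totals, where 8 were lowered and 6 raised). In the direct contrast with Chaf1a siRNA alone, 19 of 23 were higher with si308 and none lower (background 9.91% raised and 12% lowered), with a median difference of 0.62. Hmgcs1, an early enzyme of the pathway, had 344 and 332 CPM under control siRNA, 327 and 308 CPM with si308 and a mean of 193 CPM with Chaf1a siRNA alone (log2 difference 0.71, SE 0.05, adjusted p 5.1e-11, edgeR). Hmgcs1 and Insig1 were singled out after their values were seen. The call of Insig1 over the negative control was lost without replicate 1 of the negative control or replicate 0 of the si308 group (adjusted p 0.051 and 0.31, edgeR). Between the pools, si309 was lower in 5 of 23 and higher in none (background 1.27% lowered and 2.39% raised), and Hmgcs1 had a mean of 273 CPM with si309.

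**Figure D4:**
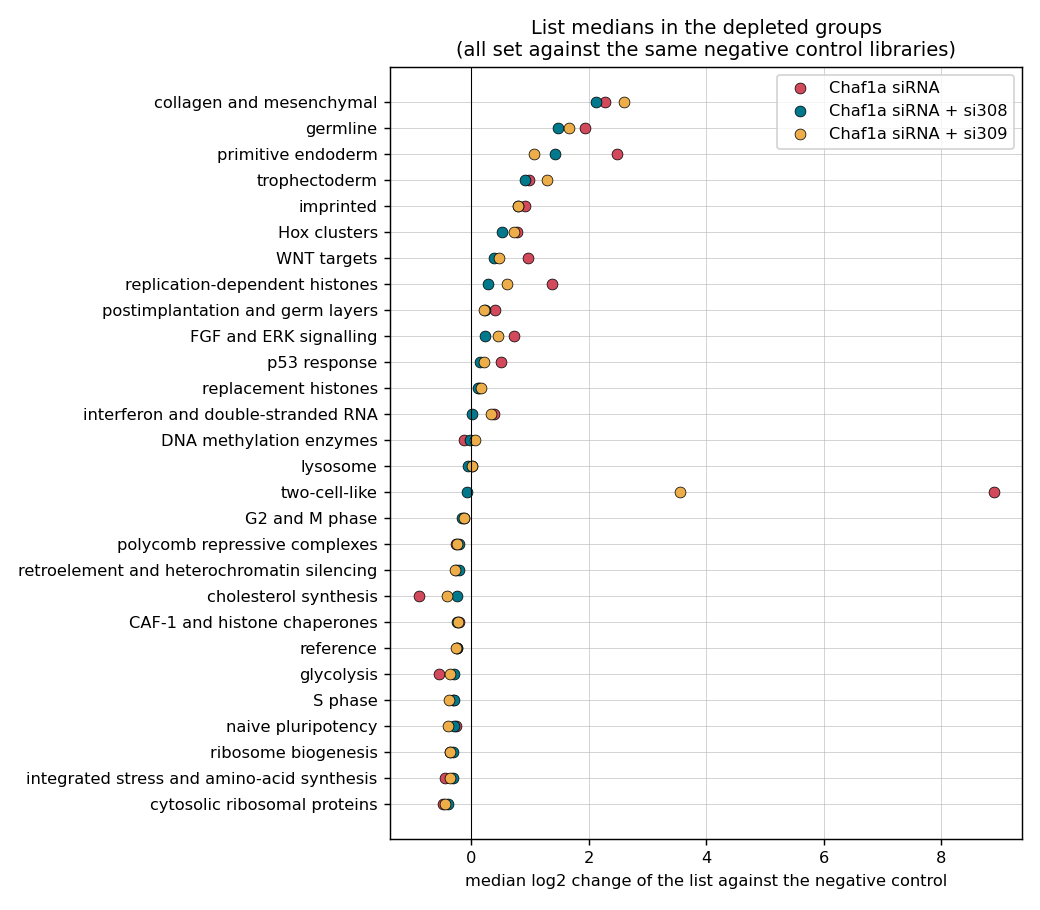
Median log2 change of each gene list against the negative control in the 3 depleted groups, which share the same negative control libraries. The two-cell-like list has medians of -0.08 with si308 and 8.89 with Chaf1a siRNA alone, and the cholesterol synthesis list has -0.24 and -0.89.

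Signalling and damage genes went both ways. Among p53 response genes 13 of 26 were raised and 8 lowered, with a median of 0.15. Perp, a membrane effector of p53, had 7.22 and 6.33 CPM against 37.8 and 40.1 CPM, and Ccng1, cyclin G1, had 455 and 418 CPM against 720 and 728 CPM. Cdkn1a, the cell cycle inhibitor p21, rose from 158 and 166 to 237 and 250 CPM, named after its values were seen. In the direct contrast, 12 of the 26 were lower with si308 than with Chaf1a siRNA alone and none was higher (background 12% and 9.91%).

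Interferon and double-stranded RNA genes were raised in 7 and lowered in 7 of 26 cases (median 0.02, and 0.18 with library totals). B2m, the light chain of MHC class I, had 23.4 and 23.6 CPM against 59.4 and 60.4 CPM, in the direction of H2-D1 above. Ifitm3 and Ifitm1, membrane proteins that restrict viruses, fell from 175 and 177 to 86.7 and 85.8 CPM and from 180 and 196 to 133 and 124 CPM, and Mavs, the adaptor of RNA sensing, from 53.3 and 54.4 to 31.0 and 29.2 CPM.

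FGF and ERK genes were raised in 11 of 23 cases and lowered in 4, and WNT targets were raised in 8 of 17 and lowered in 4, in medium that holds inhibitors of MEK and GSK3. Fgfr1, an FGF receptor, had 116 CPM in both negative control libraries and 197 and 210 CPM with si308. Fos, an immediate early factor, had 2.12 and 2.61 CPM against 8.99 and 8.44 CPM, lower than the mean of 18.4 CPM with Chaf1a siRNA alone (log2 difference -1.08, adjusted p 1.7e-07, edgeR). Dkk1, a secreted WNT inhibitor, had 0.157 and 0.121 CPM against 2.46 and 3.38 CPM, while Ccnd1, cyclin D1, fell from 102 and 98.0 to 53.9 and 57.8 CPM. Lysosome genes were raised in 10 of 24 cases and lowered in 10, and the median of -0.05 became 0.11 with library totals. Hexa, a subunit of hexosaminidase, fell from 243 and 266 to 158 and 143 CPM, by 0.76 on the log2 scale.

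Of 1253 repeat names tested, 136 were raised (10.9%) and 47 lowered (3.75%). At 2-fold the counts were 21 (1.68%) and 4 (0.319%). With library totals 420 were raised and 26 lowered. The number raised was 70 without replicate 0 of the negative control and 227 without replicate 1 of the si308 group. The number lowered was 30 without replicate 0 of the negative control and 117 without replicate 0 of the si308 group. P-values of repeats rest on a spread shared over all repeat names. How reads that match several copies were assigned to repeat names is not given, so values of single names are uncertain.

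MERVL-int, the internal part of the reporter's retrovirus, had 59.4 and 59.6 CPM in the control libraries against 76.0 and 71.2 CPM with si308 (log2 change 0.31, SE 0.08, adjusted p 0.0011, edgeR), beside a mean of 2680 CPM with Chaf1a siRNA alone. The si308 libraries thus lay above the negative control and far below the Chaf1a-only level. Its long terminal repeat MT2_Mm had 33.3 and 34.2 CPM against 37.7 and 33.9 CPM, which overlap, and did not pass (log2 change 0.08, adjusted p 0.58, edgeR). With library totals MT2_Mm passed (log2 change 0.25, adjusted p 0.019, edgeR).

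The 8 largest rises among repeats of at least 5 CPM held 2 SINE names of the B2 family and 3 names of MaLR elements. By whole family, 3 of 5 B2 names and 11 of 94 MaLR names (11.7%) were raised, against 10.9% of all repeat names. In the SINE families Alu and B4, 0 of 16 and 0 of 4 names were raised. B2_Mm1a, a young B2 SINE transcribed by RNA polymerase III when free, had 546 and 609 CPM against 1620 and 1750 CPM (log2 change 1.55, SE 0.07), and B2_Mm1t had 555 and 585 CPM against 1230 and 1280 CPM. Both si308 libraries lay above both negative control libraries for these names. Free B2 RNA and B2 sequence within other transcripts were not told apart. ORR1A0-int, the internal part of a MaLR element, rose from 93.0 and 89.8 to 256 and 250 CPM. RLTR1B and RodERV21-int of the ERV1 family rose by 1.25 and 1.02 on the log2 scale, and RLTR10B2 of the ERVK family rose by 1.5 from 3.10 and 2.36 CPM. RLTR1B-int, the more abundant internal part, did not rise with RLTR1B. It was lowered, from 723 and 734 to 623 and 654 CPM (log2 change -0.19, adjusted p 0.049, edgeR). ORR1A1-int and ORR1A0 rose by 1.04 and 0.95. All 8 of these raised names had lower means than with Chaf1a siRNA alone in the direct contrast (log2 differences of -0.41 to -1.11), in which 24.9% of all repeat names were lower and 0.479% higher. Smaller rises were also seen at high level: B2_Mm2 had a mean of 1780 CPM under control siRNA and 2330 CPM with si308, and MMERVK10C-int of the ERVK family rose from 114 and 112 to 197 and 198 CPM. RLTR1B-int, B2_Mm2 and MMERVK10C-int were named after their values were seen.

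The ERVK family went both ways, with 39 of 273 names raised (14.3%) and 21 lowered (7.69%). Over all repeat names these shares were 10.9% and 3.75%. The 2 largest falls at 5 CPM or more were of ERVK names, IAP1-MM_I-int and IAPEy-int. The next 2, LTR53 and LTR88c, belong to the families ERVL and Gypsy?, and L1ME3E, also among the named falls, to L1. MMETn-int, the most abundant of the named falls, fell from 1560 and 1430 to 1040 and 995 CPM (log2 change -0.55, SE 0.07). Of the 5 ETn and MusD names, 4 were lowered. IAP1-MM_I-int fell from 27.1 and 32.1 to 15 and 12 CPM and IAPEy-int from 29.0 and 30.4 to 16.6 and 10.9 CPM, with replicate 0 above replicate 1 in the si308 group for both. Of 16 IAP names, 1 was raised and 4 lowered, and IAPEz-int had 117 and 120 CPM against 125 and 118 CPM (adjusted p 0.86, edgeR; log2 change 0.03). The other named falls were of LTR53, LTR88c, MMTV-int, L1ME3E and IAPEY_LTR, by 0.56 to 0.91, of which MMTV-int and L1ME3E were not called without replicate 1 of the si308 group (adjusted p 0.058 for each, edgeR), nor L1ME3E without replicate 1 of the negative control (adjusted p 0.087). Of 6 listed young L1 names, 2 were raised and 1 lowered. L1Md_F2 rose from 712 and 697 to 838 and 774 CPM (log2 change 0.19, adjusted p 0.042, edgeR), and L1Md_F3 from 227 and 222 to 272 and 253 CPM (log2 change 0.22, adjusted p 0.017, edgeR). L1Md_T had 838 and 766 CPM against 816 and 906 CPM, and L1Md_A, with 1070 and 979 CPM against 824 and 871 CPM, was the name that fell. GSAT_MM, the major satellite, had 0.275 and 0.303 CPM against 0.864 and 1.30 CPM (log2 change 1.92), beside a mean of 9.80 CPM with Chaf1a siRNA alone. IAPEz-int, the 4 L1Md names and GSAT_MM were singled out after their values were seen.

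**Figure D5:**
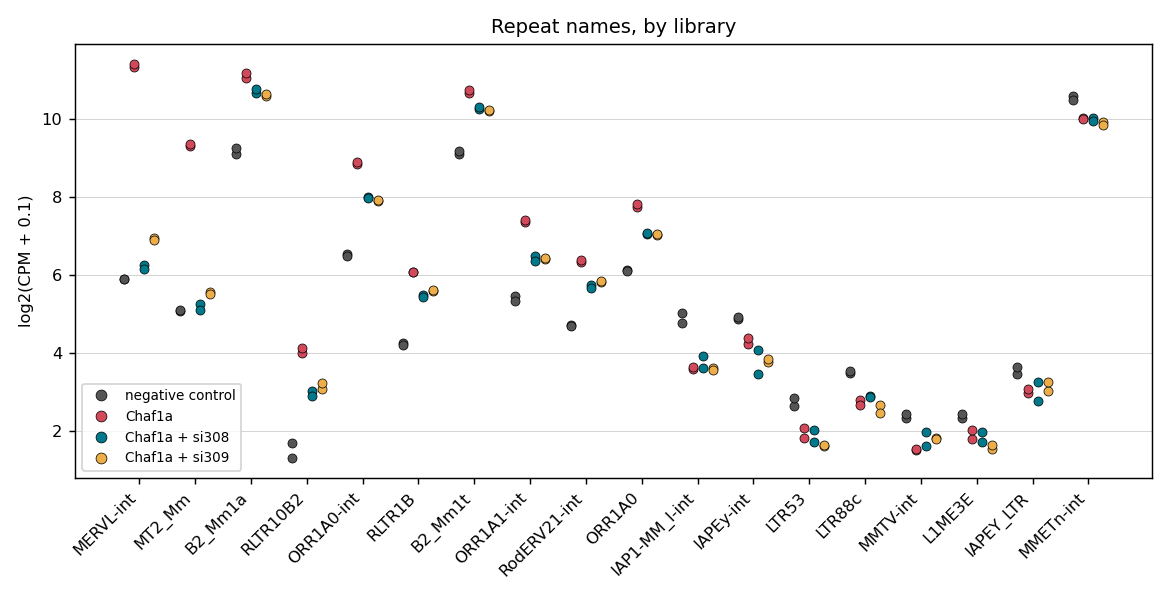
Level of the named repeats in each of the 8 libraries, as log2(CPM + 0.1), with 1 dot per library and colours for the groups. MERVL-int and MT2_Mm sit near the negative control with si308 and far above it with Chaf1a siRNA alone, and B2_Mm1a and ORR1A0-int lie between those groups.

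The pools were compared directly. Between si309 and si308, 430 genes were higher with si309 (2.39%) and 228 lower (1.27%), and 2 repeat names were higher (0.16%), MERVL-int and MT2_Mm. Of the 40 two-cell-like genes, 28 were higher with si309 and none lower. Only 7 of the 40 passed the filter without the si309 and Chaf1a-only libraries, so this count describes their level only. Zscan4d had 0.160 and 0.278 CPM with si308 and a mean of 5.63 CPM with si309, and mDux had 1 and 4 counts against 5 and 9 (log2 difference 1.5, adjusted p 0.29, edgeR). So where the pools differed for these genes, the si308 libraries held the lower level.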

How the data were processed

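Poly(A) RNA of 8 libraries was sequenced. The deposited tables hold raw counts per gene and per repeat name. Per the submitters' processing notes, reads were aligned with Novoalign 2.8 to mm10 and DESeq2 was used; the counter and the annotation are not given in the sources used here. The authors also deposited log2 fold changes, adjusted p-values and 8 columns of rlog values per table, none of which were used. The columns carry the numbers 0 and 1, which map to a group but not to the labels' replicate numbers, so "replicate 0" and "replicate 1" name columns.

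The raw counts of all 8 libraries were fitted together (4 residual degrees of freedom) with edgeR 4.0.16 in R 4.3.3: filterByExpr, TMM factors, glmQLFit and glmQLFTest, with Benjamini-Hochberg adjustment over the 17977 genes or 1253 of 1499 repeat names that passed the filter. Repeats were scaled with the gene libraries' sizes and factors. The scripts were tested on simulated data. P-values measure only the spread between these libraries. Gene counts per library ranged from 26042851 to 42375685. Counting intervals are exact at 95%, and a floor is 3 counts. Of 28431 gene IDs, 27843 matched GENCODE M21, 27 symbols turned into dates were replaced through their ID, and 703 of 707 list members were found.

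Named genes were those with the largest changes at 1 CPM or more (15 each way) and at 50 CPM or more (10 each way), with groups that do not overlap and no predicted-gene names, the 4 list members of lowest adjusted p, defining genes of lists, and for repeats MERVL-int, MT2_Mm and up to 8 each way at 5 CPM or more; others are said to have been chosen after their values were seen. The comparison and the lists were chosen with earlier results of these data known. The alternatives were DESeq2 1.42.0, other scalings, no filter, the 4 compared libraries alone, a test against a 2-fold change, a replicate block, and each library left out. Same-numbered libraries of the 2 groups did not deviate together (r = -0.093 over 9441 genes at 10 CPM or more). With 2 libraries per group this cannot show whether the numbers pair them by design, and the main fit did not pair them.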

Additional observations from a re-analysis of the deposited data

How the results depend on the processing

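Chaf1a passed in each of its 10 alternatives, among them library totals, where its log2 change was -1.85, and mDux passed in none of its 9. The mDux log2 change of 0.90 ranged from -0.09 without replicate 1 of the si308 group to 4.23 without replicate 1 of the negative control, so its direction rests on single counts. Scaling by library totals gave 7684 genes raised, 3276 lowered and 259 lowered at least 2-fold, and a test against a 2-fold change (glmTreat) gave 2170 raised and 139 lowered. Repeats raised were 88 with DESeq2 and 420 with library totals, and repeats lowered were 26 with library totals and 117 with factors and totals of the repeat table. Leaving out single libraries gave 70 to 227 repeats raised, 30 to 117 repeats lowered, 5132 to 5573 genes raised and 4640 to 4747 genes lowered; the cause was not tested. With the replicate block the counts were 5907 genes raised and 5123 lowered, with 123 repeats raised and 43 lowered. Of the 222 named genes, 21 lost their call in at least 1 alternative and 0 reversed. Library totals turned the median of G2 and mitosis genes to 0.01, of DNA methylation enzymes to 0.14, of lysosome genes to 0.11 and of two-cell-like genes to 0.00.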

Other observations

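The shares of raised and lowered genes are given by gene class, and the difference between classes was not tested. Over all genes tested, 33.1% were raised and 28.5% lowered. Protein-coding genes were raised in 5527 of 15299 cases (36.1%) and lowered in 4600 (30.1%). Among 813 processed pseudogenes 60 were raised (7.38%) and 232 lowered (28.5%), with a median log2 change of -0.21. Small nucleolar RNA genes, which lie mostly in introns of host genes, were raised in 2 and lowered in 40 of 150 cases, with a median of -0.41, and poly(A) selection and the overlap with host genes make these values uncertain. Among 398 lincRNA genes 94 were raised (23.6%) and 63 lowered (15.8%), and among 447 antisense genes 82 were raised (18.3%) and 46 lowered (10.3%).

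Raised genes lay on each autosome and on chromosome X, and chromosomes with fewer than 50 genes tested were not summarised. The share of tested genes raised at least 2-fold was 24.2% on chromosome X (171 of 708) and ranged over the autosomes from 15.4% on chromosome 19 to 22.5% on chromosome 18, against 18.5% of all genes. The difference between chromosomes was not tested.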
